A study of Mus musculus with 10 samples.

Results

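Glycolysis and the response to low oxygen share much of their gene list, and 35 such genes were followed here in mouse leukemia cell lines. The list held 3 hexokinases, 7 enzymes of upper and 5 of lower glycolysis, 4 enzymes of the lactate and pyruvate branch, 3 enzymes that set fructose 2,6-bisphosphate, 4 oxygen sensing genes and 9 further genes known as hypoxia targets. Members were found on the expression array through its probe annotation, and the probe set (the group of probes for 1 transcript) with the highest mean over the 10 arrays stood for each gene. In all, 32 of the 35 members were measured, out of 18193 genes with a probe set of their own, and all 32 were among the 11992 genes tested. Gpi1 and Eno1 were not analysed here, nor was Bnip3l, whose 3 probe sets are shared with the pseudogene Bnip3l-ps. Ero1l is the older symbol of the gene that the array annotation lists as Ero1a.

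Glycolysis splits glucose into pyruvate and yields ATP without oxygen, and lactate dehydrogenase turns the pyruvate into lactate. When oxygen is plentiful, the EGLN prolyl hydroxylases mark HIF-1α, the protein of Hif1a, for destruction. When oxygen is scarce, HIF-1α persists, pairs with ARNT, the other subunit of HIF-1, and raises the transcription of glycolytic enzymes, of factors that divert pyruvate from the mitochondrion and of Egln3 itself. Blood progenitors and leukemia cells are known to lean on this program in the poorly oxygenated marrow.

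The lines were made outside the animal, and each sample's RNA was hybridised to its own Mouse Genome 430 2.0 array of Affymetrix. The RH-RAS lines carry DNMT3A with the R882H mutation together with NRAS with the G12D mutation, both known from acute myeloid leukemia. There were 2 RH-RAS arrays treated with SGC0946, an inhibitor of the histone H3 lysine 79 methyltransferase Dot1l, at 1 µM for 4 days (lines 1 and 3). The other groups were 1 line transformed by the fusion MLL-AF9, 3 lines transformed by the fusion NUP98-JARID1A, and 4 independently derived untreated RH-RAS lines. The treated cultures are the same lines as untreated lines 1 and 3, and MLL-AF9 stands on 1 line. No normal progenitor was in the comparison, so each difference is between transformed lines, and all were cultured with stem cell factor. The labels state neither the oxygen level of the cultures, nor a vehicle for the controls, nor the promoter behind each oncogene, nor when the arrays were scanned.

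Values are log2 intensities, so a difference of 1 is a factor of 2 in signal, and levels of different genes cannot be ranked against each other. The array medians lay between 5.72 and 5.82. The blood cell genes Ptprc, Spi1, Mpo, Myb, Kit and Cd34 were above the array median on every array. Of the stroma and red cell genes, Col1a1, Col1a2, Col3a1, Hba-a1 and Alas2 were below it on every array. The others measured were not: Fn1 and Epor were below it on 1 array, Klf1 on 4 and Pdgfrb on 6. Fn1 had 10.46, 8.06 and 10.44 in NUP98-JARID1A lines 1, 2 and 3 and 8.80 in MLL-AF9. Marker lists of blood cell types moved with the groups. The mean level of 9 monocyte and macrophage markers was 11.1 and 11.2 on the treated arrays, 8.59 in MLL-AF9, 9.49 to 10.5 in NUP98-JARID1A and 7.38 to 8.79 in untreated RH-RAS, where line 4 had 8.79 and lines 1 to 3 had 7.38 to 7.43. All 9 rose after SGC0946. The mean of 5 T and NK cell markers was 5.53 to 5.55 on the treated arrays, 5.74 in MLL-AF9, 6.40 to 7.01 in NUP98-JARID1A and, in untreated RH-RAS, 7.07 in line 4 and 8.30 to 8.40 in lines 1 to 3. Of these 5, Cd3g, Gzma and Gata3 fell after SGC0946, which is the direction of the genes followed here. Of 6 progenitor and blood identity genes, Kit fell by 1.98, Cd34 by 1.67 and Myb by 1.03 on the log2 scale after SGC0946, and Spi1 rose by 1.21. The mean of 10 neutrophil markers was 4.87 to 4.91 on the treated arrays, 9.40 in MLL-AF9, 8.92 to 12.4 in NUP98-JARID1A and 4.49 to 4.65 in untreated RH-RAS. The mean of 4 proliferation genes was 13.1 to 13.2 on treated arrays, 12.8 in MLL-AF9, 12.9 to 13.0 in NUP98-JARID1A and 13.1 to 13.2 in untreated RH-RAS. Untreated line 4 also stood apart from lines 1 to 3 for the genes followed here, as described further on. The part of these markers' cells in the changes below was not tested, and in bulk RNA fewer cells that express a gene and less RNA per cell cannot be told apart.

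HIF-1 binds DNA at a short core, ACGTG or GCGTG, within the hypoxia response element, so the 250 bases before each start in RefSeq's promoter table (build GRCm38.p6) were searched for these letters on both strands, counting overlapping matches. A listed start can lie inside the gene's outer limits, as for Ankrd37, whose gene spans chr8:45996908-46000414, and 25 of the members' 44 windows overlap their own gene's span. The other windows printed here end at the gene's outer start. Because members moved together after SGC0946, the promoters of 4 members that fell most and of 1 that fell without a match are printed 5′ to 3′ in the direction of the gene, with each match in capitals (the reverse strand reads CACGT or CACGC).
Egln3, chr12:54203875-54204124, minus strand: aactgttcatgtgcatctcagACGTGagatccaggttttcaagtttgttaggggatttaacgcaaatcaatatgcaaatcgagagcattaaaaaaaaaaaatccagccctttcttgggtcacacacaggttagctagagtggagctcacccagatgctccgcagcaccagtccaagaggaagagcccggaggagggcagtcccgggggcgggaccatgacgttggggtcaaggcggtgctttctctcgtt
Ankrd37, chr8:45999851-46000100, minus strand: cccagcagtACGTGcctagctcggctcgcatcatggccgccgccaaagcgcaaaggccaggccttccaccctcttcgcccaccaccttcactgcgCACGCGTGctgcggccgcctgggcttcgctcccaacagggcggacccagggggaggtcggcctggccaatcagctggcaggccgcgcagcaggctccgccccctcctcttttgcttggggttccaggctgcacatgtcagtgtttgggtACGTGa
P4ha2, chr11:54100674-54100923, plus strand: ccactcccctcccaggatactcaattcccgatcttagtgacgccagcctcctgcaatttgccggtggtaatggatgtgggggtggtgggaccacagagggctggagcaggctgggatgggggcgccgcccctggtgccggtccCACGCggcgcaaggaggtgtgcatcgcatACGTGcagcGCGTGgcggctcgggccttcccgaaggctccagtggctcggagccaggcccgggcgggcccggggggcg
Bnip3, chr7:138909507-138909756, minus strand: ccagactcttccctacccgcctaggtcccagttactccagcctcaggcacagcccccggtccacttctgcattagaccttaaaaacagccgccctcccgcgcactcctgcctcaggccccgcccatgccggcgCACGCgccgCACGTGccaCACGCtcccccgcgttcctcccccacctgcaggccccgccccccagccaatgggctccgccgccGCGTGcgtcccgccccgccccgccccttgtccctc
Tpi1, chr6:124814159-124814408, minus strand: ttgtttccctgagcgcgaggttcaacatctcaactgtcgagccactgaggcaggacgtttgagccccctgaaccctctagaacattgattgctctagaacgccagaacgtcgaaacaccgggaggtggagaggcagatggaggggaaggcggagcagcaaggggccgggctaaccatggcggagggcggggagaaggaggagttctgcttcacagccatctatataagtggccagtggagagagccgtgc
Bnip3 had 5 matches in this window, Ankrd37 had 4, P4ha2 had 3, Egln3 had 1 and Tpi1 had 0. The 32 measured members had 44 promoters in the table, of which 79.5% held a match, against 38.6% of all 32851 promoters. The members' promoters were also richer in CpG, with a median of 14 CpG against 6 in all promoters, and both cores contain a CpG. A match did not mark the members that fell: 79.2% of the 24 promoters of fallen members held one, as did 80% of the 20 promoters of members that did not pass the test. A match in these letters is a description of the sequence and not a binding site.

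**Figure D1:**
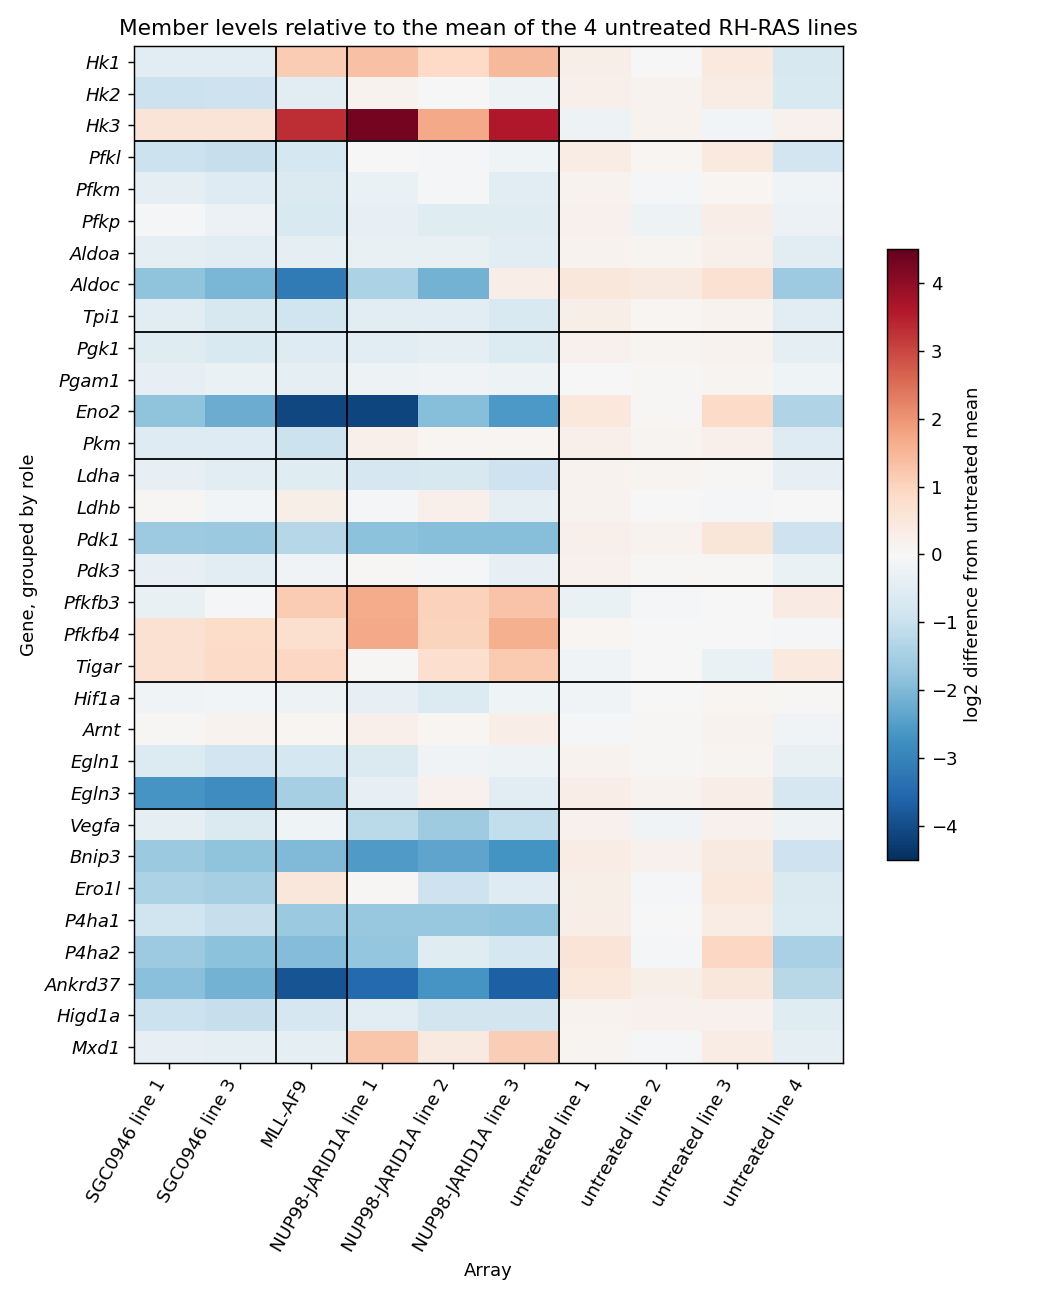
Log2 level of each measured member (rows, grouped by role) on each of the 10 arrays (columns), as the difference from the mean of the 4 untreated RH-RAS lines; red is higher and blue lower. Untreated line 4 is bluer than untreated lines 1 to 3 in most rows, and Hk3 is the reddest row in the MLL-AF9 and NUP98-JARID1A columns.

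Many of the glycolytic and hypoxia response genes fell after SGC0946, from hexokinase 2 to pyruvate kinase and the hypoxia targets outside glycolysis. Of the 32 members, 18 fell, 0 rose and 14 did not pass the test (limma across all genes, adjusted p under 0.05), while 5.13% of all tested genes fell and 6.84% rose. The falls ran from -0.41 for Pgam1 to -3.02 for Egln3, and the median change was -0.79 over the members and 0.02 over all tested genes. At least 2-fold falls past the test were found for 10 members, against 2.08% of all tested genes. At an unadjusted p under 0.05, 25 members were lower and 2 were higher. By line, 31 of 32 members moved the same way in lines 1 and 3, and 17 of the 18 fallen members fell further in line 3. The shares of all tested genes at the unadjusted threshold and by line were not counted, so these counts are description only.

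The test compares 2 treated with 2 untreated arrays and takes its spread from all 10. With line as a block 9 of the 18 falls passed (Pfkl, Pdk1, Egln3, Bnip3, Ero1l, P4ha1, P4ha2, Ankrd37 and Higd1a), and without any 1 of the 4 compared arrays at most 1 passed: Egln3 without treated line 1, untreated line 1 or untreated line 3, and 0 without treated line 3. Without untreated line 4, which enters only the spread, 19 fell: Pfkm, Pfkp and Vegfa no longer passed and Hk1, Aldoa, Eno2 and Ldha did.

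**Figure D2:**
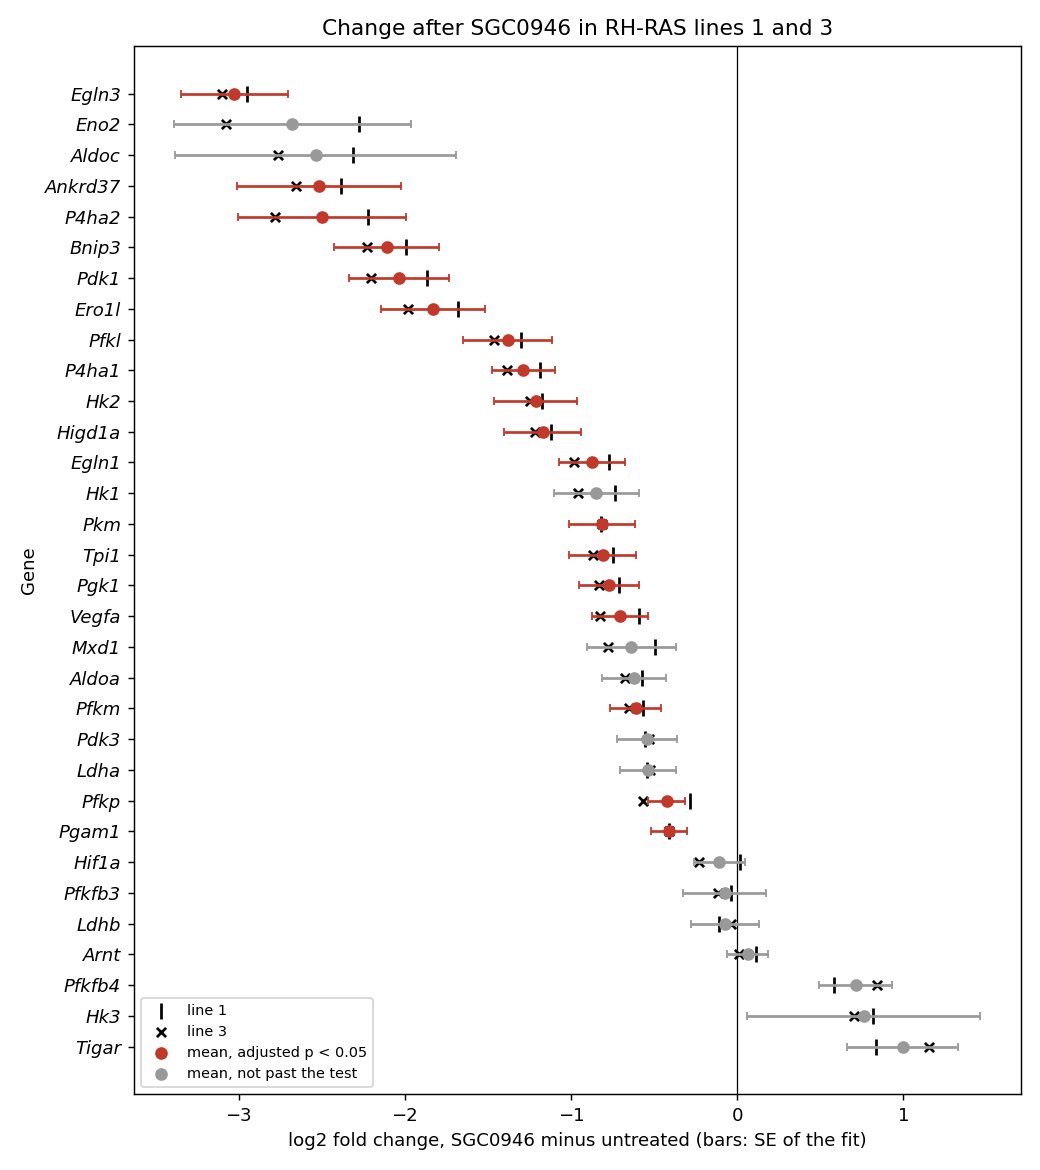
Log2 change after SGC0946 for each of the 32 measured members, with the SE of the fit and the change within lines 1 and 3 as separate points. The points of both lines lie on the same side of 0 for 31 of the 32 members. They are furthest apart for Eno2, at -2.28 in line 1 and -3.08 in line 3, and Egln3 at -3.02 is the lowest called member.

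Among the hexokinases, which trap glucose by phosphorylating it, Hk2 fell and the other two did not pass the test. Hk2, the inducible form, had 10.30 and 10.33 in treated lines 1 and 3, against 11.48, 11.40, 11.58 and 10.58 in untreated lines 1, 2, 3 and 4, an order of lines kept below. Both treated arrays lay below all 4 untreated arrays. The change was -1.21 ± 0.25 (adjusted p = 0.0236), and the adjusted p was 0.0514 with line as a block. Hk1, the constitutive form, had 8.80 and 8.75 in treated and 9.53, 9.24, 9.71 and 8.54 in untreated lines. Treated Hk1 lay below untreated lines 1 to 3 and above line 4, with a difference of -0.85 ± 0.26 (adjusted p = 0.0768). Hk3, abundant in mature myeloid cells, had 7.68 and 7.69 in treated and 6.86, 7.26, 6.99 and 7.28 in untreated lines, with both treated arrays above all untreated ones and a difference of 0.76 ± 0.70 (adjusted p = 0.563).

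In upper glycolysis, all 3 phosphofructokinases and Tpi1 fell. Pfkl, the liver-type subunit of the committed step, had 9.79 and 9.74 in treated lines and 11.09, 10.87, 11.20 and 9.92 in untreated lines. The change was -1.38 ± 0.27 (adjusted p = 0.0195), 2.6-fold lower, and line 4 was the untreated array nearest to the treated ones. Pfkm, the muscle-type subunit, had 9.17 and 8.99 in treated and 9.74, 9.48, 9.64 and 9.41 in untreated lines, with no overlap and a change of -0.61 ± 0.16 (adjusted p = 0.0453). Pfkp, the platelet-type subunit, had 11.14 and 10.97 in treated and 11.42, 11.01, 11.54 and 10.96 in untreated lines. Untreated line 2 of Pfkp lay between the treated arrays and line 4 just below them. The change of Pfkp between the matched lines was -0.42 ± 0.11 (adjusted p = 0.046). The isomerase Tpi1 had 13.15 and 12.91 in treated and 13.90, 13.73, 13.78 and 13.10 in untreated lines, where line 4 overlapped the treated arrays, a change of -0.81 ± 0.20 (adjusted p = 0.0428). The aldolases, which split the 6-carbon sugar, did not pass. Aldoa had 13.45 and 13.42 in treated and 14.02, 14.02, 14.09 and 13.38 in untreated lines, where line 4 lay below the treated arrays, a difference of -0.62 ± 0.19 (adjusted p = 0.0829). Aldoc had 7.81 and 7.56 in treated and 10.12, 10.03, 10.32 and 7.99 in untreated lines. Its difference of -2.54 ± 0.85 had an adjusted p of 0.101, and of 0.0716 without untreated line 4.

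In lower glycolysis Pgk1, Pgam1 and Pkm fell. Pgk1, which makes the first ATP of the pathway, had 13.60 and 13.44 in treated and 14.31, 14.24, 14.27 and 13.68 in untreated lines, with no overlap. The change was -0.77 ± 0.18 (adjusted p = 0.0342). Pgam1, the mutase after it, had 12.80 and 12.88 in treated and 13.21, 13.23, 13.29 and 13.00 in untreated lines, also with no overlap, and its change of -0.41 ± 0.11 was the smallest that passed (adjusted p = 0.0492). Pkm, pyruvate kinase, had 12.65 and 12.63 in treated and 13.47, 13.33, 13.44 and 12.65 in untreated lines, where line 4 was level with treated line 1, and its change was -0.82 ± 0.20 (adjusted p = 0.0394). The enolase Eno2 had 6.50 and 6.10 in treated and 8.78, 8.35, 9.17 and 6.96 in untreated lines. All 4 untreated arrays of Eno2 were above the treated ones, and the difference of -2.68 ± 0.71 did not pass (adjusted p = 0.0517).

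In the lactate and pyruvate branch Pdk1 fell. Pdk1, the kinase that shuts pyruvate dehydrogenase and so keeps pyruvate out of the mitochondrion, had 9.37 and 9.32 in treated and 11.24, 11.14, 11.52 and 10.06 in untreated lines. Every treated array lay below every untreated one, and the change of -2.03 ± 0.30, 4.1-fold lower, passed also with line as a block (adjusted p = 0.0086 and 0.0258 with the block). Ldha, the lactate dehydrogenase subunit of HIF-1's target set, had 13.52 and 13.44 in treated and 14.07, 14.03, 13.96 and 13.52 in untreated lines, where line 4 was level with treated line 1, a difference of -0.54 ± 0.17 (adjusted p = 0.0862). Pdk3 differed by -0.54 ± 0.18 (adjusted p = 0.0986) and Ldhb by -0.07 ± 0.20 (adjusted p = 0.882).

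The enzymes that set fructose 2,6-bisphosphate, an activator of phosphofructokinase, did not pass the test. Pfkfb4, which makes and degrades it, had 8.09 and 8.23 in treated and 7.51, 7.40, 7.38 and 7.34 in untreated lines, so both treated arrays were the higher ones, but its difference of 0.71 ± 0.22 did not pass (adjusted p = 0.0796). Tigar, a phosphatase that slows glycolysis, had 7.67 and 7.87 in treated and 6.84, 7.01, 6.71 and 7.45 in untreated lines and also lay above all untreated arrays, with a difference of 1.00 ± 0.34 (adjusted p = 0.103). Pfkfb3, the isoform with the strongest kinase activity, differed by -0.08 ± 0.25 (adjusted p = 0.902).

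In oxygen sensing, the hydroxylases Egln3 and Egln1 fell and the HIF-1 subunits did not pass. Their relative Egln2, which is not a member, differed by -0.08 ± 0.09 (adjusted p = 0.662). Egln3 had 9.44 and 9.31 in treated and 12.39, 12.26, 12.41 and 11.33 in untreated lines, with no overlap. The change was -3.02 ± 0.32 (adjusted p = 0.0038), 8.14-fold lower and the largest fall past the test among the members, and the adjusted p was 0.0157 with line as a block. Egln1, the main oxygen-dependent HIF hydroxylase, had 10.37 and 10.13 in treated and 11.14, 11.03, 11.12 and 10.63 in untreated lines, without overlap, a change of -0.87 ± 0.20 (adjusted p = 0.0315). Hif1a mRNA had 11.60 and 11.62 in treated and 11.59, 11.75, 11.85 and 11.82 in untreated lines. These overlapped, with a difference of -0.11 ± 0.15 (adjusted p = 0.728), and Arnt differed by 0.06 ± 0.12 (adjusted p = 0.816). HIF-1α is controlled mainly as a protein, which arrays do not measure.

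The hypoxia targets outside glycolysis had the largest median change of the groups, -1.56, and 7 of the 8 measured fell. Bnip3, a mitochondrial protein that starts the removal of mitochondria, had 11.47 and 11.32 in treated and 13.46, 13.34, 13.54 and 12.22 in untreated lines. The change was -2.11 ± 0.32 (adjusted p = 0.009), 4.31-fold lower, with no overlap of the groups. Ankrd37, an ankyrin repeat protein, had 9.11 and 8.88 in treated and 11.49, 11.26, 11.53 and 9.75 in untreated lines, a change of -2.52 ± 0.49 (adjusted p = 0.0202), and the treated arrays again lay below all untreated ones. The collagen prolyl hydroxylase subunit P4ha1 had 9.71 and 9.56 in treated and 10.90, 10.62, 10.95 and 9.99 in untreated lines. It did not overlap between the groups, and its change was -1.29 ± 0.19 (adjusted p = 0.00853). Its relative P4ha2 had 4.51 and 4.30 in treated and 6.73, 6.11, 7.08 and 4.71 in untreated lines, a change of -2.50 ± 0.51 (adjusted p = 0.022). P4ha2 was above the array median only in untreated lines 1 to 3, through which it entered the test, so the size of its fall is not settled, and without it 17 of 31 members fell. Ero1l, the oxidase that helps form disulfide bonds in the endoplasmic reticulum, had 10.14 and 10.06 in treated and 11.82, 11.50, 12.04 and 10.90 in untreated lines, with no overlap and a change of -1.83 ± 0.31 (adjusted p = 0.0142). Higd1a, a mitochondrial protein of the respiratory chain, had 11.24 and 11.18 in treated and 12.37, 12.39, 12.39 and 11.67 in untreated lines, also with no overlap, a change of -1.17 ± 0.23 (adjusted p = 0.0207). The angiogenic growth factor Vegfa had 8.15 and 7.92 in treated and 8.74, 8.41, 8.74 and 8.35 in untreated lines, a change of -0.71 ± 0.17 (adjusted p = 0.037) that did not pass with line as a block (0.0662). Mxd1, a partner of MAX that opposes MYC, had 7.63 and 7.55 in treated and 8.13, 7.96, 8.33 and 7.62 in untreated lines, a difference of -0.64 ± 0.27 (adjusted p = 0.177). All 11 of the fallen members with several probe sets showed the same sign on every one of them.

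**Figure D3:**
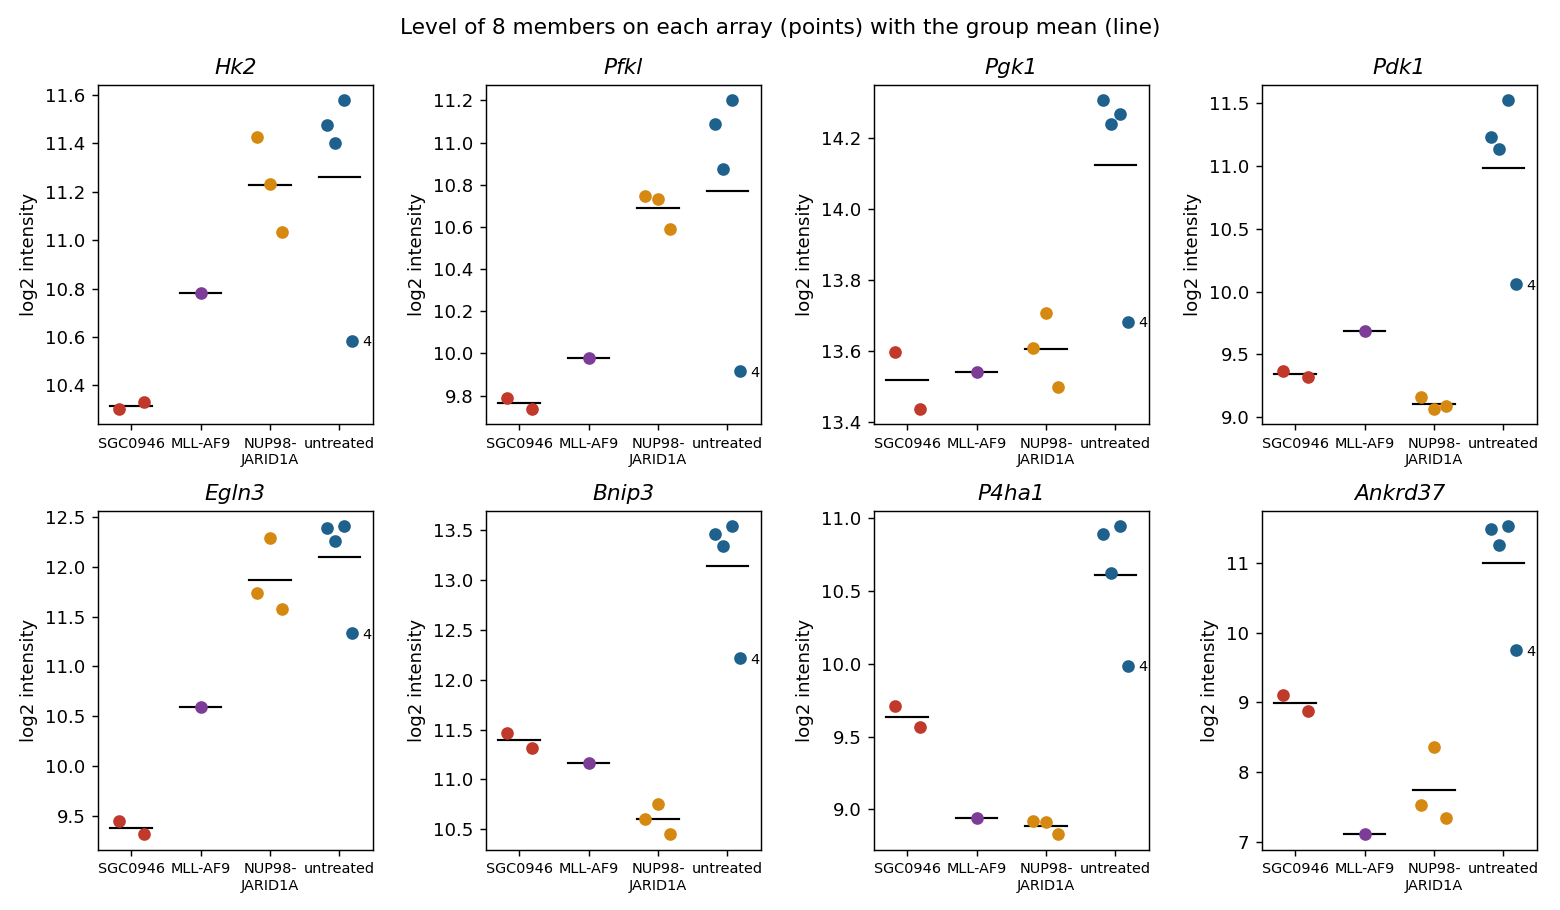
Log2 levels on every array for 8 members, by group, with the treated, MLL-AF9 and NUP98-JARID1A arrays to the left of the untreated RH-RAS arrays. Both treated arrays lie below all untreated arrays for each of the 8, and Egln3 is low after SGC0946 but near the untreated level in NUP98-JARID1A.

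Other genes of the same pathways, from a list of 51 of which 41 were tested, were counted the same way. In limma 13 fell, 0 rose and 28 did not pass, beside 5.13% of all tested genes that fell and 6.84% that rose. At an unadjusted p under 0.05, 2 were higher, and the share of all tested genes at that threshold was not counted. Their median change was -0.33. The 6 largest changes past the test were all falls. The mitochondrial adenylate kinase Ak4 changed by -4.73 ± 0.57, and the secreted hypoxia target Stc2 by -4.09 ± 0.58. Both treated arrays of Ak4 were below the array medians, at 5.55 and 5.69, so the size of its fall is not settled. The lactate exporter Slc16a3 changed by -2.13 ± 0.54 and did not pass with line as a block (adjusted p = 0.0858). The glucose transporter Slc2a3 changed by -1.88 ± 0.32, the glycogen branching enzyme Gbe1 by -1.62 ± 0.26 and the histone demethylase Kdm3a by -1.61 ± 0.28.

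Untreated line 4 had lower levels of these genes than the other untreated RH-RAS lines. It lay below all of lines 1 to 3 for 27 of the 32 members, above them for 3 and within their range for 2, whereas it lay below for 30.2% and above for 33.2% of all tested genes. The median difference of line 4 from the mean of lines 1 to 3 was -0.63 over the members and 0.01 over all tested genes. It was at least 2-fold lower for 8 members, against 0.934% of tested genes. These were Aldoc, lowest at -2.16, P4ha2, Eno2, Ankrd37, Pdk1, Bnip3, Pfkl and, at -1.02, Egln3. Line 4 is 1 array, so these values have no test. It also had the highest monocyte and macrophage marker level of the untreated lines, 8.79 against 7.38 to 7.43, and the lowest T and NK cell marker level, 7.07 against 8.30 to 8.40. Their part was not tested.

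**Figure D4:**
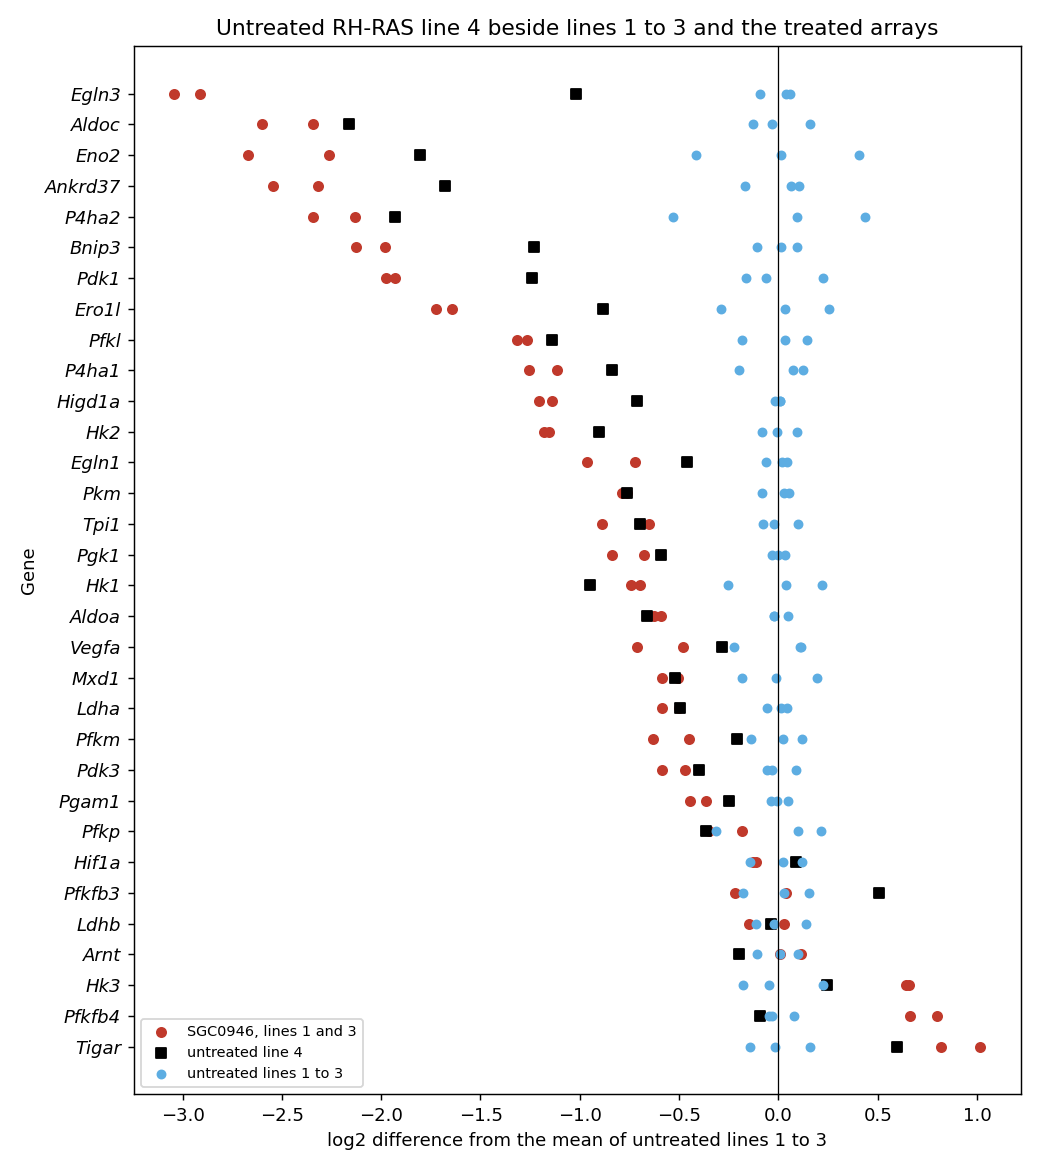
Log2 difference from the mean of untreated RH-RAS lines 1 to 3, for each of the 32 measured members. Black squares are untreated line 4, red points are the SGC0946 arrays of lines 1 and 3, and light blue points are untreated lines 1 to 3. For line 4 most members lie below 0, with Aldoc lowest at -2.16 and Tigar highest at 0.60.

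In the NUP98-JARID1A lines some members were lower and others higher. Of the 32 members, 12 were lower, 5 were higher and 15 did not pass against the 4 untreated RH-RAS lines, while 18.5% of all tested genes were lower and 32.5% were higher. The median difference was -0.36 over the members and 0.10 over all tested genes. Subtracting the median of the tested genes from each array shifted this comparison by 0.252 log2 and turned the split of all calls from 63.8% higher to 35.2% higher, and 16 members were then lower and 5 higher, against 35.9% lower and 19.5% higher of all tested genes. The comparison shares its untreated arrays with the SGC0946 comparison, so the values of both are given side by side and not correlated.

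The genes higher in NUP98-JARID1A were 2 hexokinases, 2 enzymes that make fructose 2,6-bisphosphate, and Mxd1. Hk3 had 11.39, 8.80 and 10.70 in NUP98-JARID1A lines 1, 2 and 3, against 6.86, 7.26, 6.99 and 7.28 in untreated RH-RAS lines. All 3 lines lay above all untreated ones, with a difference of 3.20 ± 0.54, 9.2-fold higher (adjusted p = 0.00231). Pfkfb4 had 9.10, 8.40 and 9.01 in NUP98-JARID1A and 7.51, 7.40, 7.38 and 7.34 in untreated lines, a difference of 1.43 ± 0.17 (adjusted p = 0.000429). Pfkfb3 had 9.20, 8.54 and 8.80 in NUP98-JARID1A and 7.21, 7.42, 7.55 and 7.90 in untreated lines, with no overlap. The difference was 1.33 ± 0.20 (adjusted p = 0.0014), and over its 2 probe sets it ran from 0.40 to 1.33. Hk1 had 10.58, 10.16 and 10.73 in NUP98-JARID1A and 9.53, 9.24, 9.71 and 8.54 in untreated lines, again with no overlap, a difference of 1.23 ± 0.28 (adjusted p = 0.00886). The phosphofructokinases did not share that direction: Pfkp was lower, at -0.49 ± 0.16, and Pfkl and Pfkm did not pass. Mxd1 had 9.27, 8.43 and 9.10 in NUP98-JARID1A and 8.13, 7.96, 8.33 and 7.62 in untreated lines, a difference of 0.93 ± 0.24 (adjusted p = 0.0143), but its 3 probe sets disagreed, with differences from -0.15 to 0.93. All 10 neutrophil markers were higher in the same lines, and their part in these differences was not tested.

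Of the 12 lower members, 5 were hypoxia targets outside glycolysis, 2 were in upper and 2 in lower glycolysis, 2 in the lactate and pyruvate branch, and 1 was Hif1a. Ankrd37 had 7.52, 8.37 and 7.34 in NUP98-JARID1A and 11.49, 11.26, 11.53 and 9.75 in untreated lines, 9.61-fold lower (-3.26 ± 0.47, adjusted p = 0.00109). Bnip3 had 10.60, 10.76 and 10.45 in NUP98-JARID1A and 13.46, 13.34, 13.54 and 12.22 in untreated lines, a difference of -2.54 ± 0.31 (adjusted p = 0.000562). In both, even the low line 4 was above every NUP98-JARID1A line. P4ha1 had 8.92, 8.91 and 8.83 in NUP98-JARID1A and 10.90, 10.62, 10.95 and 9.99 in untreated lines (-1.73 ± 0.22, adjusted p = 0.000703). Vegfa had 7.35, 6.96 and 7.45 in NUP98-JARID1A and 8.74, 8.41, 8.74 and 8.35 in untreated lines (-1.31 ± 0.16, adjusted p = 0.000524). Pdk1 had 9.16, 9.07 and 9.09 in NUP98-JARID1A and 11.24, 11.14, 11.52 and 10.06 in untreated lines (-1.89 ± 0.32, adjusted p = 0.00224). None of the 3 genes overlapped between the groups. Eno2 had 4.18, 6.39 and 5.75 in NUP98-JARID1A and 8.78, 8.35, 9.17 and 6.96 in untreated lines (-2.88 ± 0.65, adjusted p = 0.00844). Lines 1 and 3 of NUP98-JARID1A were at or below the array medians for Eno2, so the size of its difference is not settled. Ldha had 13.14, 13.16 and 12.96 in NUP98-JARID1A and 14.07, 14.03, 13.96 and 13.52 in untreated lines (-0.81 ± 0.14, adjusted p = 0.00296). Neither enzyme overlapped between the groups.

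On the probe sets used, the remaining lower members differed by under 1 on the log2 scale. Over all their probe sets the differences ran from -1.62 to -0.23 for Hif1a and from -1.52 to -0.56 for Tpi1. They ran from -1.51 to -0.47 for Pfkp, from -1.16 to -0.52 for Pgk1 and from -0.86 to -0.44 for Higd1a. Higd1a had 11.75, 11.39 and 11.37 in NUP98-JARID1A and 11.67 to 12.39 in untreated lines (-0.70 ± 0.20, adjusted p = 0.0227). Tpi1 had 13.15, 13.12 and 12.93 in NUP98-JARID1A and 13.10 to 13.90 in untreated lines (-0.56 ± 0.19, adjusted p = 0.041). Pgk1 had 13.61, 13.71 and 13.50 in NUP98-JARID1A and 13.68 to 14.31 in untreated lines (-0.52 ± 0.16, adjusted p = 0.0307). The lowest untreated array of these genes was line 4, and for all 3 it lay inside the range of the NUP98-JARID1A lines. Hif1a had 11.39, 11.15 and 11.57 in NUP98-JARID1A and 11.59 to 11.85 in untreated lines (-0.38 ± 0.12, adjusted p = 0.031), and Pfkp had 10.85, 10.69 and 10.68 in NUP98-JARID1A and 10.96 to 11.54 in untreated lines (adjusted p = 0.0355). These 2 genes did not overlap between the groups. None of the 5 passed without untreated RH-RAS line 3 (7 lower members were left), and Hif1a also did not pass with the replicate number as a block (adjusted p = 0.075). Each of the 5 was lost as well without at least 1 other line.

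Several members that fell after SGC0946 did not pass here. Egln3 had 11.74, 12.29 and 11.57 in NUP98-JARID1A and 12.39, 12.26, 12.41 and 11.33 in untreated lines, overlapping, with a difference of -0.23 ± 0.30 (adjusted p = 0.547), where SGC0946 changed it by -3.02 ± 0.32. Hk2 had 11.43, 11.23 and 11.03 in NUP98-JARID1A and 11.48, 11.40, 11.58 and 10.58 in untreated lines (-0.03 ± 0.24, adjusted p = 0.927). Pfkl had 10.75, 10.73 and 10.59 in NUP98-JARID1A and 11.09, 10.87, 11.20 and 9.92 in untreated lines (-0.08 ± 0.29, adjusted p = 0.846). Over the 3 probe sets of Pfkl the difference ran from -0.88 to -0.08. On the probe sets used, the NUP98-JARID1A lines lay within the untreated range for Hk2 and Pfkl. Pkm had 13.44, 13.30 and 13.30 in NUP98-JARID1A and 13.47, 13.33, 13.44 and 12.65 in untreated lines (0.12 ± 0.20, adjusted p = 0.638), also within it, and its sign turned, to -0.13, after the array medians were subtracted. Ero1l had 11.61, 10.63 and 10.99 in NUP98-JARID1A (-0.49 ± 0.32, adjusted p = 0.235), P4ha2 had 4.43, 5.62 and 5.36 in NUP98-JARID1A (-1.02 ± 0.57, adjusted p = 0.173), and neither passed. Egln1 had 10.34, 10.83 and 10.75 in NUP98-JARID1A (-0.34 ± 0.17), Pfkm had 9.28, 9.53 and 9.06 (-0.28 ± 0.13) and Pgam1 had 12.96, 13.02 and 12.97 (-0.20 ± 0.09). The difference between the SGC0946 and NUP98-JARID1A effects was not tested.

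Of the other pathway genes, 13 of 41 were lower, 9 higher and 19 did not pass in NUP98-JARID1A, beside 18.5% lower and 32.5% higher of all tested genes. The 6 largest differences past the test began with Stc2 at -3.73 and the carbonic anhydrase Car12 at 2.83. The mTOR inhibitor Ddit4 at -2.33, Slc2a3 at -2.31, Ndrg1 at -2.30 and Ak4 at -2.23 followed. Car12 was above the array median only in NUP98-JARID1A and MLL-AF9, through which it entered the test, so the size of its difference is not settled. Stc2 was below the array medians in NUP98-JARID1A line 2, at 5.56, so the size of its difference is not settled either.

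**Figure D5:**
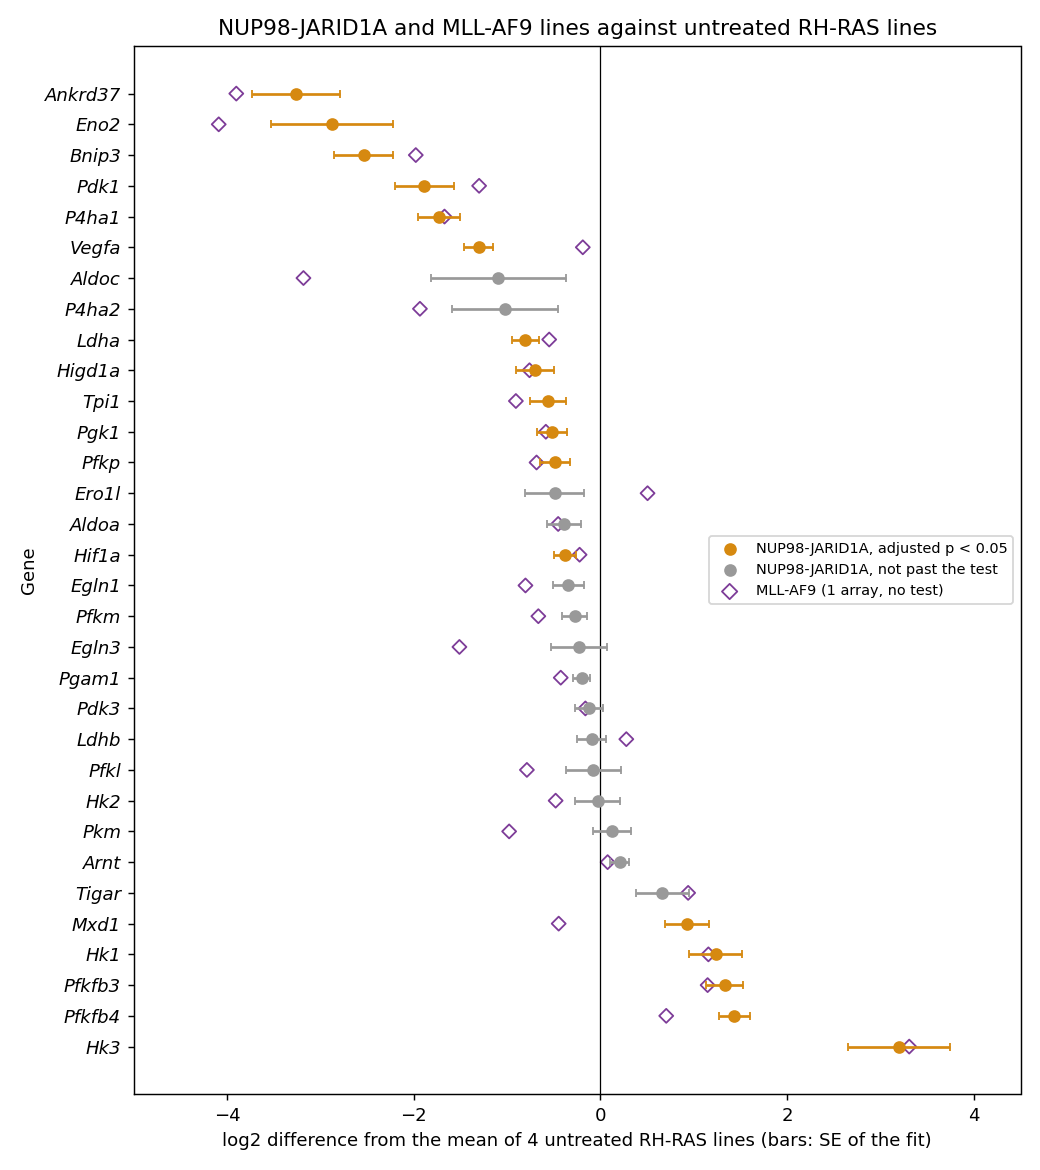
Log2 difference from the mean of the 4 untreated RH-RAS lines for the NUP98-JARID1A lines (filled points, bars are the SE of the fit) and for the MLL-AF9 array (open diamonds, no test). Ankrd37 is lowest in NUP98-JARID1A at -3.26 and Hk3 highest at 3.20. On the probe sets used, Ero1l, Ldhb, Pkm and Mxd1 lie on opposite sides of 0 in the 2 genotypes.

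The MLL-AF9 line, with 1 array and no test, was at least 2-fold apart and outside the untreated RH-RAS range for 11 members. It was lower for 8 and higher for 3, while 5.78% of all tested genes were that much lower and 7.21% that much higher. The median difference was -0.57 over the members and 0.07 over all tested genes. Eno2 had 4.23 in MLL-AF9 against 6.96 to 9.17 in untreated RH-RAS, and the MLL-AF9 signal was below the array median, so no fold is given. Ankrd37 had 7.11 in MLL-AF9 against 9.75 to 11.53 in untreated RH-RAS, 14.9-fold lower. Aldoc had 6.43 in MLL-AF9 against 7.99 to 10.32 in untreated RH-RAS, 9.08-fold lower, while the NUP98-JARID1A lines had 8.18, 7.48 and 9.91. These 3 were the furthest below the untreated lines. Bnip3 had 11.16 in MLL-AF9, a difference of -1.98. P4ha2 had 4.22 in MLL-AF9 (-1.93), below the array median, and P4ha1 had 8.94 (-1.67). Both collagen hydroxylase subunits were below every untreated line. Egln3 had 10.59 in MLL-AF9 (-1.51) and Pdk1 had 9.69 (-1.30). The higher members were hexokinases and Pfkfb3: Hk3 had 10.40 in MLL-AF9 (9.9-fold higher), Hk1 10.41 (2.23-fold) and Pfkfb3 8.67 (2.22-fold). Ero1l, at 12.07 in MLL-AF9 against 10.90 to 12.04 in untreated RH-RAS, lay above them all, 0.50 from their mean. Its other probe sets did not: they had 11.47 in MLL-AF9, within the untreated range, and 9.67, below it. Pfkl, at 9.98 on the probe set used, was within the untreated range. The other members past a test were under 2-fold from the untreated mean in MLL-AF9. Hk2 had 10.78, Pfkm 8.90, Pfkp 10.55 and Tpi1 12.72 in MLL-AF9, and all but Hk2 lay below every untreated line. Pgk1 had 13.54, Pgam1 12.76, Pkm 12.24 and Ldha 13.35 in MLL-AF9, each below every untreated line. Egln1 had 10.18, Hif1a 11.53, Higd1a 11.44 and Mxd1 7.56 in MLL-AF9, also below them all. Vegfa had 8.37 on the probe set used, within the untreated range, and 9.34 on its other probe set, above that one's untreated range. Pfkfb4 had 8.11, above every untreated line.

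The order of the groups differed by gene. Untreated lines 1, 2 and 3 were set against the rest, a choice made after the values were seen. All 7 other arrays, treated, MLL-AF9, NUP98-JARID1A and untreated line 4, were lower for 16 members, and so they were for 5.92% of all tested genes. P4ha2 is among the 16, but it entered the test only through untreated lines 1 to 3, so the filter fixed its place in this count. By group mean, treated arrays were the lowest for Egln3, Ero1l and Hk2, among others. NUP98-JARID1A was the lowest for genes such as Vegfa, Ldha and Bnip3. MLL-AF9 was the lowest for Aldoc and Ankrd37, among others, with NUP98-JARID1A next for Ankrd37.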

How the data were processed

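Per the submitters' processing notes, the authors processed the arrays with RMA, version not given in the sources used here, and the deposited values were log2 intensities per probe set. The tables used here name no array date. The deposited table held 45101 probe sets on 10 arrays. The 64 control probe sets were left out, 34945 probe sets were listed with 1 gene symbol, and each of 18193 genes was read from its brightest probe set by mean level. Genes that exceeded an array's median on 2 or more of the 10 arrays were tested, which left 11992. RMA compresses folds of dim probe sets, and the precision is limited by how many arrays there are.

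Differences were tested with limma 3.58.1 (lmFit, eBayes) in R 4.3.3, with Benjamini-Hochberg adjustment over all 11992 genes and a threshold of 0.05. Every adjusted p is from limma. The SGC0946 fit used all 10 arrays and contrasted treated with untreated lines 1 and 3; the other arrays entered only the spread. The NUP98-JARID1A fit used the 8 arrays without inhibitor. MLL-AF9, with 1 array, was called where at least 1 log2 unit from the untreated mean and outside the untreated range. Lines are separate cultures of 1 RNA sample each, so p-values measure the spread between these arrays. Labels place the same cell line in treated and untreated pairs, and the deviations of lines 1 and 3 from their group means correlated at 0.292. The script for the fits was tested on simulated data.

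Every member was followed, with all array values for those past a test or at least 2-fold apart in MLL-AF9, and from the other pathway list the 6 largest changes past each test were named. Members, lists and comparisons were chosen with earlier results of these data known. Alternatives were another scaling, other filters, the mean of all probe sets, a trended prior, blocks, other sample sets and leaving out each array. Promoters came from RefSeq (GRCm38.p6).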

Additional observations from a re-analysis of the deposited data

Results flagged for a closer look

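Among the 4 untreated RH-RAS lines, 8 members had line 4 further below the others than a Dixon test allows, by the ratio of the gap to the nearest line over the whole range. The ratio was 0.961 for Higd1a, 0.900 for Aldoa, 0.895 for Pgk1, 0.876 for Aldoc, 0.860 for Egln3, 0.846 for Bnip3, 0.845 for Ankrd37 and 0.833 for Pkm. Chance marks about 1 group in 20, and 7.13% of all 11992 tested genes had such a line among the 4. The mean of the monocyte and macrophage markers in line 4 was 8.79, against 7.38 to 7.43 in lines 1 to 3, and that of the T and NK cell markers was 7.07, against 8.30 to 8.40. Their part in these values was not tested.

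On the probe set used, Hif1a changed after SGC0946 by 0.02 in line 1 and by -0.23 in line 3, a difference of 0.247 that was not tested. Its other probe sets moved the same way in both lines. From untreated to treated, lines 1 and 3 went from 9.41 to 9.33 and from 9.53 to 9.38 on 1 of them. On the next they went from 8.37 to 8.33 and from 8.41 to 8.29, and on the dimmest from 4.70 to 4.97 and from 4.55 to 4.59.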

How the results depend on the processing

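After SGC0946, 18 members fell; 9 fell with line as a replicate block and 11 with all 4 untreated lines as control. The leave-one-out counts ran from 0 (without treated line 3) to 19 (without untreated line 4). With 1 array left in an arm, its spread is taken to be that of the other groups. Instead of 0, 1 member rose with the mean of all probe sets (Tigar), 1 with all 4 untreated lines as control (Pfkfb4) and 3 with only the 6 RH-RAS arrays, where 23 fell (Hk1, Aldoc, Eno2, Pdk3 and Mxd1 were added). With array medians subtracted, without the filter, with the stricter filter, with the probe set mean and with a trended prior, 14 to 19 fell. All genes called numbered 867 with the block and 2746 with only the 6 RH-RAS arrays, against 1435. In NUP98-JARID1A, 12 members were lower, and leave-one-out counts ran from 7 (without RH-RAS line 3) to 16 (without RH-RAS line 4). The lines of these genotypes share only a number; with it as a replicate block 15 were lower and 5 higher. Of the called members, 12 passed there in every setting in which they were tested. Among these, Eno2 did not reach the stricter filter and was not tested under it. The median of line 4 was -0.53 with the mean of all probe sets. Signs turned only for members that did not pass. Pkm was -0.13 with array medians subtracted and -0.067 with the replicate block, and Arnt -0.047 with medians subtracted. Left-out arrays gave, after SGC0946, Ldhb from -0.20 to 0.054, Pfkfb3 from -0.24 to 0.092, Hif1a from -0.24 to 0.023 and Arnt from -0.038 to 0.17, and in NUP98-JARID1A Hk2 from -0.26 to 0.074, Pfkl from -0.36 to 0.065, Pkm from -0.067 to 0.21, Ldhb from -0.26 to 0.069 and Pdk3 from -0.22 to 0.0047. The cause was not tested.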
